A study of Mus musculus with 8 samples.

Results

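The genes described here encode neurexins, neuroligins and leucine-rich repeat transmembrane proteins (LRRTMs), which organize synapses from both sides of the cleft. They are Nrxn2, Nrxn3, Nlgn1, Nlgn2, Nlgn3, Lrrtm1, Lrrtm2, Lrrtm3 and Lrrtm4. These 9 genes were taken by name from the 26711 features of the count matrix.

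Single-nucleus RNA-seq was performed on V1, the primary visual cortex, from mice on postnatal day 21. All mice were GR fl/fl, that is, both copies of Nr3c1, which encodes the glucocorticoid receptor, were flanked by loxP sites, and all received at birth an AAV2/5 vector with the astrocyte promoter GfaABC1D and EGFP-CAAX. The vector carried Cre in GR-KO mice and the inactive ΔCre in GR-Con mice. Both genotypes were kept under normal rearing (NR) or dark rearing (DR), which gave NR GR-KO, NR GR-Con, DR GR-KO and DR GR-Con with 2 animals each. In each group the library names mark 1 male and 1 female animal. The Cre is driven from an astrocyte promoter, so neurons of GR-KO mice were not the intended target. Nuclei positive for DRAQ5 and, per the study's methods, negative for GFP were sorted. Each library is 1 animal, and p-values measure the spread between animals.

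Neurexins sit in the presynaptic membrane and bind postsynaptic partners across the cleft. Neuroligins are the best known of these partners: NLGN1 is found mainly at excitatory synapses, NLGN2 at inhibitory synapses and NLGN3 at both. LRRTM1 and LRRTM2 are postsynaptic neurexin ligands of excitatory synapses, and LRRTM4 binds heparan sulfate on glypicans and neurexins. Neurexin genes make long and short proteins from different start sites, which counts per gene do not separate. The same genes are also expressed outside neurons, where astrocytes carry neuroligins and OPCs receive synapses.

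The matrix held 102330 nuclei, of which 69372 were excitatory, 10403 inhibitory and 22555 non-neuronal, in 20 cell types. The libraries held 9517 to 15161 nuclei and 168632129 to 288774016 unique molecular identifiers (UMIs, counted molecules). The median UMI count per nucleus was 22828 and 29223 in NR GR-KO, 17760 and 15884 in NR GR-Con, 14929 and 14861 in DR GR-KO, and 16968 and 20161 in DR GR-Con. Of 28 marker genes, 26 were highest in the type that they mark, and the exceptions, Rorb and Bcl6, were highest in astrocytes. Nr3c1 in astrocytes was 284, 268, 274 and 275 CPM (UMIs per 1000000 UMIs of that cell type in that library) in the libraries labelled GR-KO and 231, 221, 263 and 207 CPM in the libraries labelled GR-Con. It was not lower in the libraries labelled GR-KO, and counts over the whole gene cannot show the loss of an exon. Cre UMIs over all nuclei numbered 1054 and 233 in NR GR-KO, 190 and 281 in DR GR-KO and 0 in each GR-Con library. A total of 1220 cell barcodes occurred in 2 or more libraries, which covers 2.4% of nuclei.

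Levels are given in CPM and as mean ± SD over 8 libraries unless another n is stated. Levels were compared across the 15 types with at least 10 nuclei in every library. These are 8 excitatory types (L2/3, L4, the intratelencephalic L5IT and L6IT, the pyramidal tract L5PT, the near-projecting L5NP, the corticothalamic L6CT, and L6b), 4 inhibitory types (Pvalb, Sst, Vip and Lamp5), and astrocytes, oligodendrocytes and oligodendrocyte precursor cells (OPCs). The types were made by clustering these nuclei, so levels across types are a description without a test. Reads from introns count in nuclei, and long genes collect more of them, so no level is compared between genes. CPM is a share of the UMIs of a type, and types differ in UMIs per nucleus. In NR GR-KO male the median was 8405 in OPCs, 8662 in astrocytes, 27166 in L2/3 and 34118 in L5PT. The order of types in CPM is thus not an order of molecules per nucleus. In that library Nlgn3 had 492 UMIs in 924 astrocyte nuclei and 1942 UMIs in 2601 L2/3 nuclei.

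**Figure D1:**
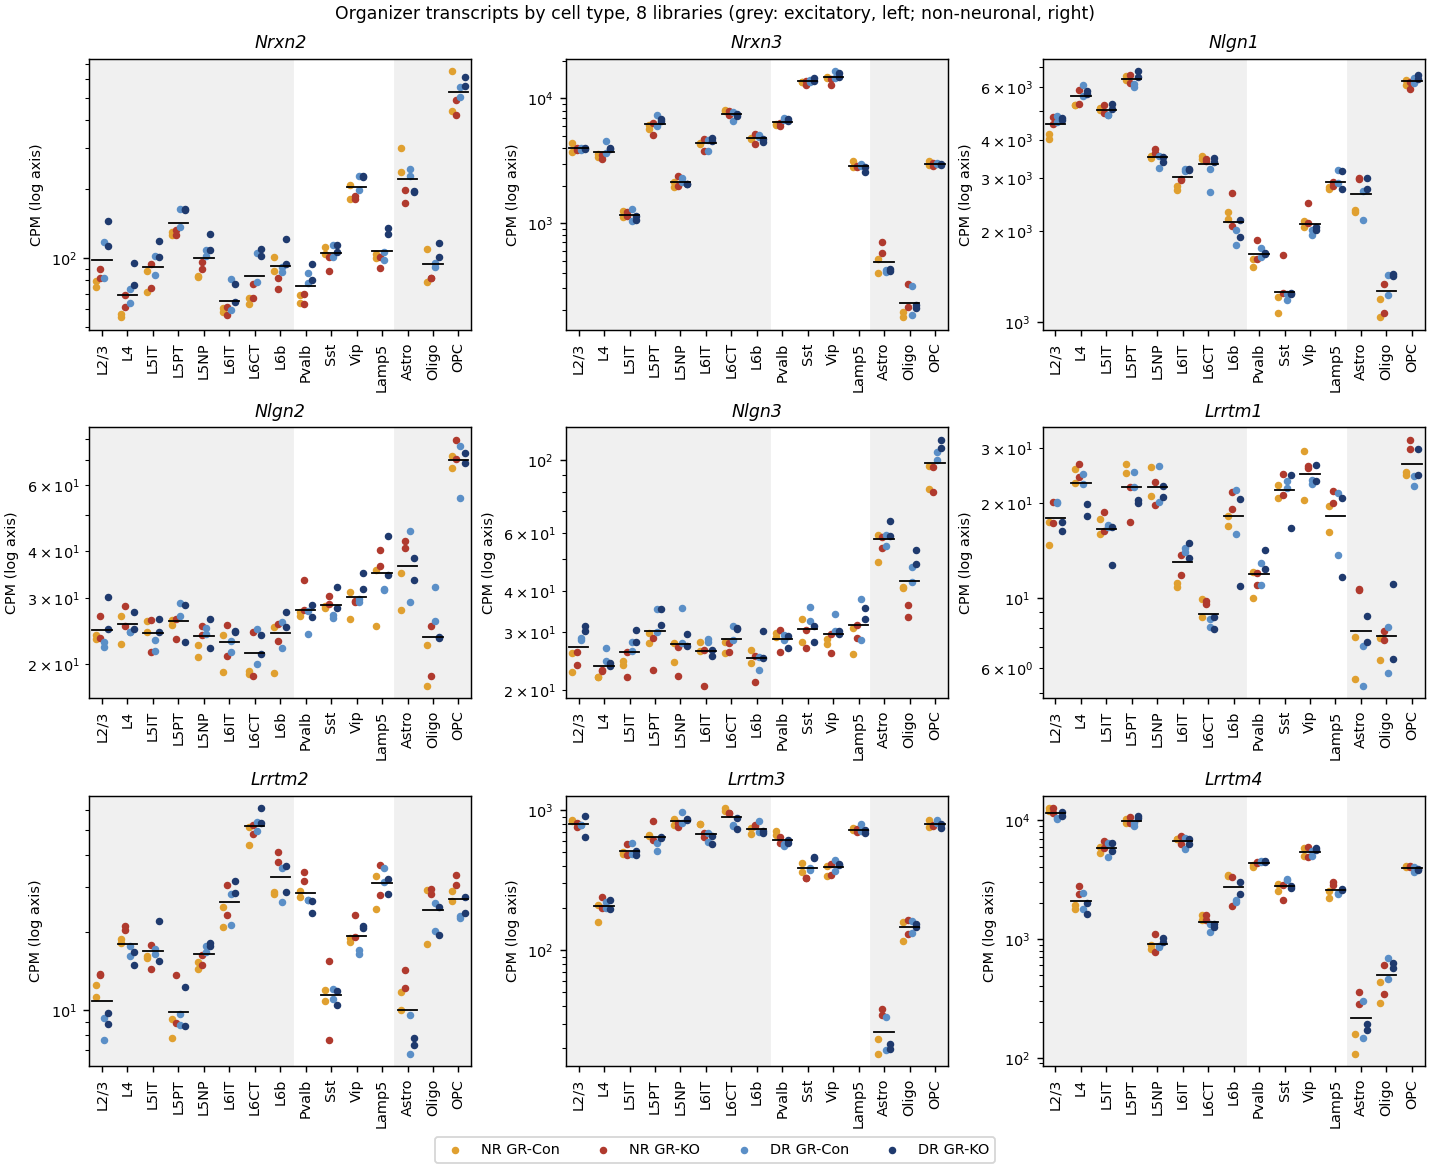
Levels of the 9 genes in 15 cell types, in CPM on a log axis. Each point is 1 library, coloured by group, and each bar is the mean of 8 libraries. Nrxn2, Nlgn2 and Nlgn3 were highest in OPCs, Nrxn3 in Vip and Sst neurons, and Lrrtm4 in L2/3 and L5PT neurons.

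Nrxn2 (ENSMUSG00000033768.17; GRCm38 chromosome 19, 6418731 to 6544169, plus strand) was highest outside neurons. OPCs held 529 ± 81.2 CPM, astrocytes 221 ± 40.4 CPM, and Vip interneurons 204 ± 20.4 CPM. The lowest level was 64.8 ± 9.03 CPM in L6IT, 8.16-fold below OPCs. OPC libraries, from 420.1 CPM upwards, did not overlap those of any other type, whereas astrocytes and Vip neurons overlapped. Vip neurons did not overlap the next type, L5PT at 143 ± 17.6 CPM, and the remaining neighbours in the order overlapped.

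Nrxn3 (ENSMUSG00000066392.11; chromosome 12, 88722876 to 90334935, plus strand) differed 64.8-fold between its highest and lowest types, the largest such range among the 9 genes. Vip and Sst interneurons held 14832 ± 1085 and 13709 ± 533 CPM and overlapped each other. L6CT followed at 7559 ± 512 CPM, below every Sst library, and Pvalb neurons held 6506 ± 344 CPM. Lamp5 interneurons (2862 ± 160.0 CPM) stood below L4, and L5IT had the lowest neuronal level, 1164 ± 93.4 CPM, 12.7-fold below Vip. Astrocytes at 486 ± 111 CPM and oligodendrocytes at 229 ± 57.3 CPM came last, without overlap with L5IT or each other.

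Nrxn3 has 3 start sites in the RefSeq table for GRCm38.p6. The outermost and innermost of these windows are shown because the counts sum over all of them. Outermost means the first of these 3 only. The GENCODE gene begins further out, at 88722876, and no window covers that position. Each window holds 250 bases before and 50 bases after a start. Capitals mark the glucocorticoid receptor half-site, AGAACA on either strand (TGTTCT on the other), which 19.0% of 32851 mouse promoter windows hold. The cyclic AMP response half-site, TGACG or CGTCA, is in 20.8% of them and in neither window shown.
Nrxn3 outermost start, chr12:88794254-88794553, plus strand: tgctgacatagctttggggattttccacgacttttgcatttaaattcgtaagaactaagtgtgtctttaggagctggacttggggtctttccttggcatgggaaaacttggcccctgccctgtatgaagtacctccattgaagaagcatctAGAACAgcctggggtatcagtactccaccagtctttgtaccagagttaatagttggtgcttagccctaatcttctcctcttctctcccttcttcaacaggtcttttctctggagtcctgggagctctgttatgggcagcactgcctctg
Nrxn3 innermost start, chr12:89812233-89812532, plus strand: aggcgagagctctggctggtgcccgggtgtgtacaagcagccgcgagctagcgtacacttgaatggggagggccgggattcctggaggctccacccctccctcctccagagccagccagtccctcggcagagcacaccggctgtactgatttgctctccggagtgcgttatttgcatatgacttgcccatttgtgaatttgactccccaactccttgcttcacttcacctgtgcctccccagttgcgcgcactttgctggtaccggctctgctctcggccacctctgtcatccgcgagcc
The outermost window has 2 CpG dinucleotides and 47.3% GC, and the innermost has 16 CpG and 60.7% GC, where the median over all windows is 7 CpG and 52.7% GC. A match to these letters is a description and not evidence of binding. The count data cannot say which start was used.

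The next question was whether rearing changed the neurexins. Pseudobulk sums per library and type were fitted with the edgeR likelihood ratio test, with p-values adjusted by Benjamini-Hochberg within each type, and genotype as a term where all 8 libraries entered. On simulated counts this test made more false calls than its threshold states, the quasi-likelihood test fewer but still more, and both recovered a minority of changed genes for the interaction, so calls near the threshold and the lack of interaction calls are weak evidence. In DR against NR over both genotypes, 8 of 135 pairs of gene and cell type were called at an adjusted p under 0.05, 6 higher and 2 lower in DR. Over all genes 5.24% of pairs were called, 2.62% higher and 2.63% lower. The quasi-likelihood test, a stricter variant, also called 8 member pairs, against 3.3% over all genes, and DESeq2 called 11. With a sex term, which matches the male and the female library of each group, 11 pairs were called, against 6.47% over all genes. The median log2 fold change of the member pairs was 0.05, and that of all genes was -0.0048 (median over types).

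Nrxn2 rose in DR in 5 neuron types: L6CT, Pvalb, L4, L2/3 and L5NP. In L6CT the 4 NR libraries held 76.8, 66.9, 62.8 and 67.0 CPM and the 4 DR libraries 109, 102, 78.5 and 105 CPM, and the groups did not overlap. The log2 fold change was 0.53 (SE 0.11, edgeR adjusted p = 5.36e-05), in a type where 12.5% of genes were called. In Pvalb neurons NR libraries lay between 62.9 and 69.6 CPM and DR libraries between 77.6 and 94.2 CPM, again apart (log2 fold change 0.36, SE 0.08, edgeR adjusted p = 0.00247).

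In L4 (log2 fold change 0.38, SE 0.10, edgeR adjusted p = 0.00403) and L2/3 (0.47, SE 0.14, adjusted p = 0.0119) the ranges overlapped. L2/3 neurons held 90.0, 81.9, 75.0 and 79.3 CPM in NR and 145, 113, 81.7 and 117 CPM in DR, and the DR GR-Con male library was the low one. In L5NP the ranges were apart, 82.7 to 95.8 CPM in NR and 103 to 127 CPM in DR (log2 fold change 0.36, SE 0.10, edgeR adjusted p = 0.0173). The log2 fold change was above 0 in all 12 neuron types, from 0.11 in Sst to 0.53 in L6CT, with a median of 0.30. These types come from the same 8 animals and are not independent replicates.

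The L6CT call held in all 8 fits that left out a library. The calls in L4 and Pvalb were lost without the DR GR-KO male library, at log2 fold changes of 0.32 and 0.30. The L2/3 call was lost in 4 fits: without the DR GR-KO male (0.37), DR GR-Con female (0.40), NR GR-KO female (0.42) or NR GR-Con male (0.47) library. The L5NP call was also lost in 4 fits: without the DR GR-KO female (0.30), NR GR-KO male (0.33), DR GR-Con female (0.36) or NR GR-Con male (0.36) library, and it was lost with counts thinned to equal totals (adjusted p = 0.0892). The DR GR-KO libraries, which had the fewest UMIs per nucleus, held the highest Nrxn2 value in L2/3, L4, L6CT, L5NP and Pvalb, and the part of depth per nucleus in this result was not tested.

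**Figure D2:**
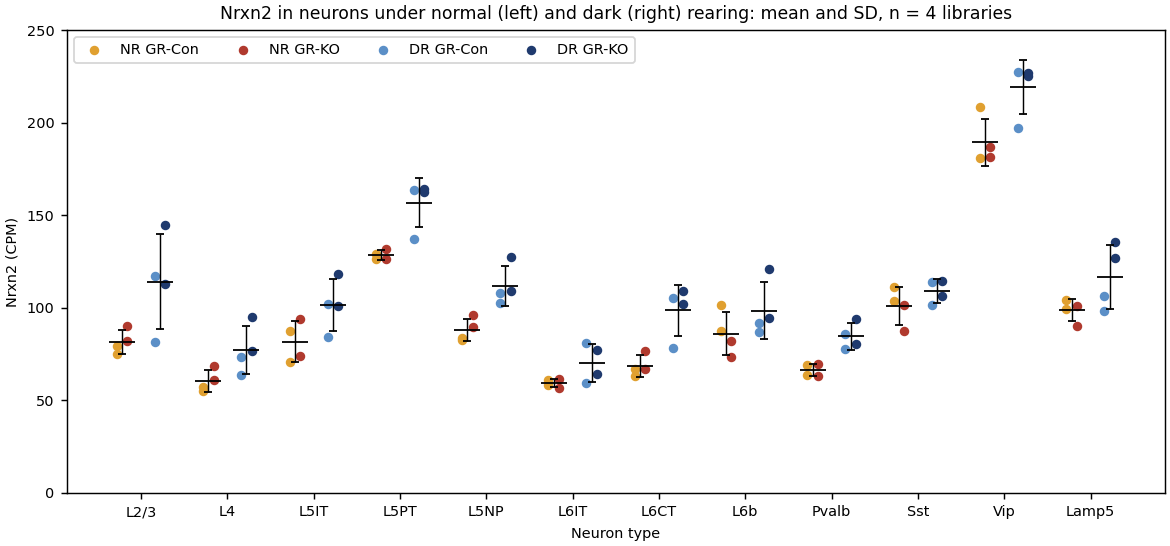
Nrxn2 in 12 neuron types, in CPM, with NR at left and DR at right of each type. Points are libraries, and bars with whiskers are the mean and SD of 4 libraries. DR means lie above NR means in all 12 types, and the ranges do not overlap in L5PT, L5NP, L6CT and Pvalb.

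In L5PT the 2 rearings did not overlap either, 126 to 132 CPM in NR and 137 to 164 CPM in DR, but the difference was not called by the edgeR test (log2 fold change 0.29, SE 0.10, edgeR adjusted p = 0.0889). It was called by DESeq2 (adjusted p = 0.0298) and without DR GR-Con male (0.35, edgeR adjusted p = 0.0358). Outside neurons Nrxn2 did not pass the test: the log2 fold change was -0.02 in astrocytes, 0.20 in OPCs and 0.21 in oligodendrocytes. Nrxn3 was called in none of 15 types, with log2 fold changes between -0.34 in astrocytes and 0.28 in L4, but L4 was called with a sex term (0.27, edgeR adjusted p = 0.0187) and by DESeq2 (adjusted p = 0.0183). Of its 15 types, 3 had an unadjusted p under 0.05. Without DR GR-Con female, Nrxn3 in L4 was also called (0.35).

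Among neuroligins, Nlgn1 (ENSMUSG00000063887.13; chromosome 3, 25426215 to 26332460, minus strand) was highest in L5PT at 6376 ± 260 CPM and in OPCs at 6264 ± 209 CPM, which overlapped. L4 at 5595 ± 323 CPM, L5IT at 5033 ± 156 CPM and L2/3 at 4535 ± 278 CPM followed. L5NP at 3506 ± 149 CPM did not overlap L2/3. L6IT at 3029 ± 188 CPM overlapped Lamp5 interneurons at 2908 ± 174 CPM, and L6b at 2146 ± 268 CPM overlapped Vip at 2107 ± 166 CPM. The lowest neuron types were interneurons, with 1673 ± 104 CPM in Pvalb and 1260 ± 174 CPM in Sst, 5.06-fold below L5PT. Over the 4 GR-Con libraries alone OPCs came first.

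Nlgn2 (ENSMUSG00000051790.15; chromosome 11, 69823122 to 69837784, minus strand) was highest in OPCs, at 70.4 ± 7.21 CPM, above every library of astrocytes (36.6 ± 6.23 CPM). Lamp5, Vip, Sst and Pvalb interneurons held 34.9 ± 5.73, 30.3 ± 2.51, 28.7 ± 1.81 and 27.9 ± 2.70 CPM. All 8 excitatory types came below these 4, from 26.1 ± 2.25 CPM in L5PT down to 21.3 ± 2.63 CPM in L6CT. All neighbours in the order from astrocytes down overlapped, and the neuronal range was 1.64-fold.

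The Nlgn2 promoter window is shown because it alone among the windows of these genes held both half-sites, which are in capitals, and because it was the richest in CpG, with 26 CpG and 68.7% GC. RefSeq windows were found for 6 of the 9 genes, 10 windows in all. The 7 other windows, of Nlgn1, Lrrtm1, Lrrtm3, Lrrtm4 and the middle start of Nrxn3, held neither half-site.
Nlgn2 start, chr11:69837735-69838034, minus strand: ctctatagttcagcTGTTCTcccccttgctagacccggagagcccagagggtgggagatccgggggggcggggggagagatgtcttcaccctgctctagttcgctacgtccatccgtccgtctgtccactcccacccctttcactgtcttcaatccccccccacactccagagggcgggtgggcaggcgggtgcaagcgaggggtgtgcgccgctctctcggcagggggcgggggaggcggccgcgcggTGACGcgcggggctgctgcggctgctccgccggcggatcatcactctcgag
The word TGTTCT stands near the upstream end and TGACG spans the start, 1 copy of each. No binding data enter here.

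Nlgn3 (ENSMUSG00000031302.16; chromosome X, 101299168 to 101325963, plus strand) was highest in the 3 glial types. OPCs held 97.9 ± 12.5 CPM, astrocytes 57.4 ± 4.73 CPM and oligodendrocytes 42.9 ± 6.50 CPM. Neurons lay between 23.6 ± 1.58 CPM in L4 and 31.4 ± 3.95 CPM in Lamp5, a 1.33-fold range. OPCs did not overlap astrocytes, and astrocytes overlapped oligodendrocytes.

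Among neuroligins, only Nlgn3 in L2/3 was called in DR against NR over both genotypes. It rose in DR, and with a sex term Nlgn3 was also called in OPCs (0.32, edgeR adjusted p = 0.0456). In L2/3 NR libraries held 26.0, 23.9, 22.7 and 25.8 CPM and DR libraries 31.3, 30.2, 28.8 and 28.3 CPM, apart from each other. The log2 fold change was 0.26 (SE 0.10, edgeR adjusted p = 0.0403), in a type where 15.9% of genes were called. The call held in 1 of 8 fits that left out a library, the one without NR GR-Con female, with log2 fold changes of 0.23 to 0.33, and it was lost with thinned counts (adjusted p = 0.0504). Nlgn3 had a positive log2 fold change in 14 of 15 types, with a median of 0.18. The rearings were also apart, without a call, in L4, L5IT, L5PT, L6CT, Vip, oligodendrocytes and OPCs. In L6CT Nlgn3 held 25.9 to 28.1 CPM in NR and 28.4 to 31.3 CPM in DR. In oligodendrocytes it held 33.4 to 41.2 CPM in NR and 42.7 to 53.1 CPM in DR. Without DR GR-Con male, Nlgn3 was called in oligodendrocytes (0.41). Nlgn1 and Nlgn2 were called in none of 15 types, with log2 fold changes of -0.23 to 0.26 and of -0.10 to 0.32.

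Lrrtm4 (ENSMUSG00000052581.13; chromosome 6, 80018877 to 80810143, plus strand) was highest in L2/3 at 11461 ± 937 CPM and L5PT at 9890 ± 654 CPM, which overlapped. L6IT at 6706 ± 523 CPM and L5IT at 5856 ± 621 CPM followed, and L4 (2091 ± 405 CPM), L6CT (1396 ± 154 CPM) and L5NP (910.3 ± 103 CPM) were lowest among neurons, each without overlap with the next. The excitatory range was 12.6-fold and the inhibitory one 2.11-fold. OPCs held 3964 ± 151 CPM, oligodendrocytes 503 ± 143 CPM and astrocytes 216 ± 88.1 CPM.

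Lrrtm3 (ENSMUSG00000042846.8; chromosome 10, 63928472 to 64090277, minus strand) was more even. L6CT (889 ± 114 CPM), L5NP (839 ± 68.4 CPM), OPCs (797 ± 36.5 CPM) and L2/3 (796 ± 76.9 CPM) overlapped at the top. L4 was the lowest neuron type at 207 ± 25.3 CPM, below every library of Sst (390.0 ± 52.6 CPM). Astrocytes held 26.1 ± 8.11 CPM, below every library of oligodendrocytes (146 ± 16.7 CPM).

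Lrrtm2 (ENSMUSG00000071862.3; chromosome 18, 35209003 to 35215024, minus strand) was highest in L6CT at 51.6 ± 4.91 CPM, above every library of L6b (32.8 ± 5.47 CPM). Lamp5 and Pvalb interneurons held 31.3 ± 4.04 and 28.4 ± 3.31 CPM. L2/3 at 10.9 ± 2.32 CPM, astrocytes at 9.96 ± 2.66 CPM and L5PT at 9.85 ± 2.00 CPM were lowest and overlapped.

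Lrrtm1 (ENSMUSG00000060780.2; chromosome 6, 77242689 to 77257791, plus strand) held 26.6 ± 3.31 CPM in OPCs, 24.8 ± 2.69 CPM in Vip, 23.2 ± 2.87 CPM in L4, 22.5 ± 2.53 CPM in L5NP and 22.5 ± 3.08 CPM in L5PT, all overlapping. The order at the top was not stable: L4 came first with TMM-scaled values and L5PT over the GR-Con libraries alone. L6CT was the lowest neuron type at 8.91 ± 0.758 CPM, below every Pvalb library (11.9 ± 1.30 CPM).

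Lrrtm1, Lrrtm2 and Lrrtm3 each lie inside a gene for an alpha-catenin, a cytoplasmic protein of cadherin junctions, on its opposite strand: Ctnna2, Ctnna1 and Ctnna3. Exons overlapped only for Lrrtm2 and Ctnna1. Reads were counted with the default settings of Cell Ranger, which keep reads of the sense strand.

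In DR against NR over both genotypes, Lrrtm2 fell in L2/3. The NR libraries held 13.6, 13.9, 11.3 and 12.6 CPM and the DR libraries 9.71, 8.86, 7.66 and 9.32 CPM, without overlap. The log2 fold change was -0.53 (SE 0.11, edgeR adjusted p = 5.88e-05; quasi-likelihood adjusted p = 0.00769), and the call held in all 8 fits that left out a library. The host gene Ctnna1 was not called in L2/3 in this comparison. Leaving out DR GR-Con male also gave a call of Lrrtm2 in astrocytes, lower in DR (-0.72).

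Lrrtm3 fell in L6CT, its highest type. NR libraries held 955, 960.0, 1039 and 994 CPM and DR libraries 739, 875, 768 and 784 CPM, which did not overlap. The log2 fold change was -0.31 (SE 0.11, edgeR adjusted p = 0.0344), and the call held in 1 of 8 fits that left out a library, the one without DR GR-KO female, with values of -0.39 to -0.27. The host gene Ctnna3 fell in the same nuclei, from 339 ± 21.1 to 221 ± 12.2 CPM (SD, n = 4; log2 fold change -0.61, SE 0.10, edgeR adjusted p = 3.1e-07), and also in L6IT and L5PT, where Lrrtm3 was not called. Lrrtm1 and Lrrtm4 were called in none of 15 types, but Lrrtm4 in L6CT was called with a sex term (-0.25, edgeR adjusted p = 0.0163) and by DESeq2 (-0.24, adjusted p = 0.0234). Leaving out 1 library gave Lrrtm4 calls in both directions. It was higher in DR in oligodendrocytes without NR GR-KO female (0.71) and lower in L6b without NR GR-KO male (-0.56).

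**Figure D3:**
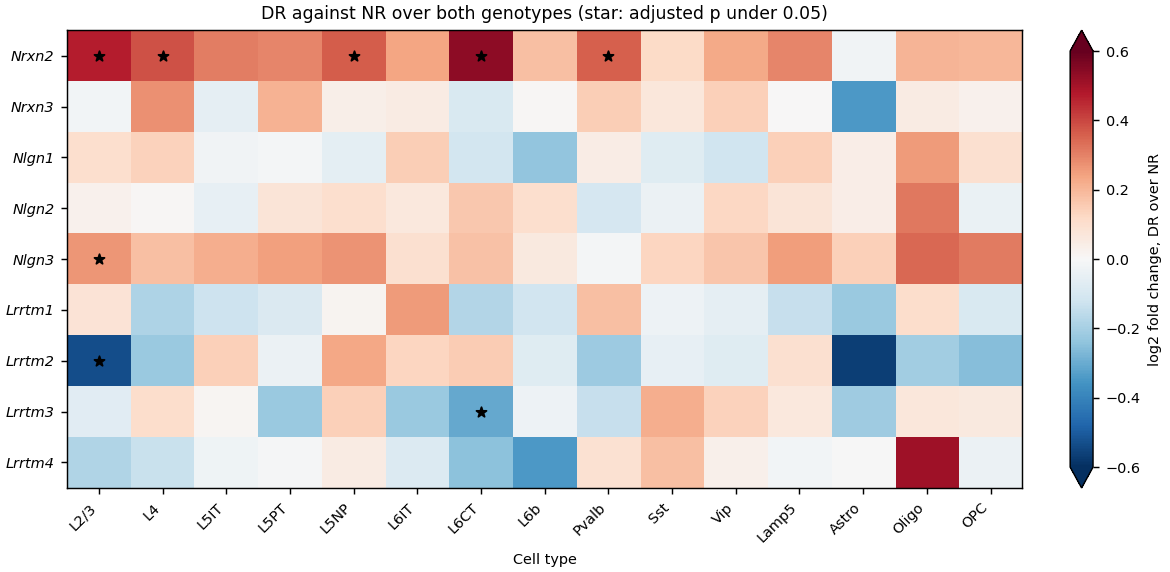
Log2 fold change of DR over NR across both genotypes for the 9 genes (rows) in 15 cell types (columns), with red higher and blue lower in DR. Stars mark the 8 pairs called at an adjusted p under 0.05: 5 are Nrxn2, and the others are Nlgn3 and Lrrtm2 in L2/3 and Lrrtm3 in L6CT.

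The rearing comparison was also made within each genotype, with 2 animals against 2. Both share animals with the comparison over both genotypes. In GR-Con mice 2 of 135 pairs were called, both lower in DR, against 2.25% over all genes. Lrrtm2 in L2/3 had a log2 fold change of -0.53 (SE 0.18, edgeR adjusted p = 0.0455). Lrrtm4 in L6b held 3448 and 3403 CPM in NR GR-Con and 2052 and 2146 CPM in DR GR-Con (log2 fold change -0.71, SE 0.15, edgeR adjusted p = 0.00188). Neither was called by the quasi-likelihood test (adjusted p = 0.115 for both). Without DR GR-Con male both calls were lost and 6 other pairs were called, all higher in DR: Nrxn2 in L2/3 (0.53) and L6CT (0.66), Lrrtm4 in astrocytes (1.14) and oligodendrocytes (0.87), Lrrtm3 in astrocytes (0.66) and Nrxn3 in oligodendrocytes (0.70). The Lrrtm2 call held in 1 of 4 such fits, the one without DR GR-Con female (-0.66). The Lrrtm4 call was lost in each of the 4 fits that left out a library, with values of -0.74 to -0.68. In GR-KO mice L6b values of Lrrtm4 were 1915 and 3355 CPM in NR and 2406 and 3014 CPM in DR, which overlapped. The summed level of neuron-only genes, described below, was 7.50% of the excitatory level in DR GR-Con female astrocytes. It was 6.37% and 4.90% in NR GR-Con astrocytes. In oligodendrocytes these values were 5.41% against 4.24% and 3.52%. The part of neuronal RNA in the glial calls made without DR GR-Con male was not tested.

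In GR-KO mice 14 of 152 pairs were called, 4 higher and 10 lower in DR, against 3.66% over all genes. The quasi-likelihood test called 8, among them Nrxn2 in OPCs, higher in DR (0.41, quasi-likelihood adjusted p = 0.00802), which was not among the 14. DESeq2 called Nrxn2 in OPCs as well (0.41, DESeq2 adjusted p = 0.00502). A sex term gave 23 calls, against 6.18% over all genes, and the added pairs were Nrxn2 in L4, L5IT, Pvalb, oligodendrocytes and OPCs (0.40 to 0.46), Lrrtm3 in Sst (0.51) and Nlgn3 in L2/3 (0.35), higher in DR, and Lrrtm4 in L4 (-0.45) and Lrrtm2 in Pvalb (-0.36), lower in DR. The 4 higher pairs were Nrxn2 in L2/3 (0.63, SE 0.18), L6CT (0.57, SE 0.15) and Lamp5 (0.52, SE 0.15) and Nlgn3 in oligodendrocytes (0.56, SE 0.15), as log2 fold changes. Nlgn3 in oligodendrocytes was 33.4 and 36.2 CPM in NR GR-KO and 53.1 and 48.4 CPM in DR GR-KO (edgeR adjusted p = 0.0088), and 41.2, 40.8, 42.7 and 47.4 CPM in the GR-Con libraries. None of these 4 passed the quasi-likelihood test. Without DR GR-KO male 3 pairs were called (Lrrtm4 in astrocytes and Nlgn1 and Lrrtm4 in vascular leptomeningeal cells, VLMCs). Nrxn2 in L2/3 was also lost without NR GR-KO female (0.59), Nrxn2 in L6CT held only without NR GR-KO male (0.68), Nlgn3 in oligodendrocytes held only without NR GR-KO female (0.62), and Nrxn2 in Lamp5 held in none of these 4 fits.

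The 10 lower pairs were Lrrtm2 in L2/3, 4 genes in astrocytes and 5 genes in VLMCs, the fibroblast-like cells of the meninges. In VLMCs Nlgn1 held 3390 and 3039 CPM in NR GR-KO and 442 and 504 CPM in DR GR-KO, a log2 fold change of -3.01 (SE 0.36, edgeR adjusted p = 1.03e-14). Lrrtm4 held 5061 and 3885 CPM in NR GR-KO and 735 and 587 CPM in DR GR-KO (-3.01, SE 0.37, edgeR adjusted p = 6.01e-14). Nrxn3, Lrrtm3 and Nrxn2 fell as well, with log2 fold changes of -1.54, -1.75 and -1.43.

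Those NR GR-KO values come from 20 and 47 nuclei, and 19.9% of all genes tested in VLMCs were called. The level of 7 neuron-only genes (Snap25, Syt1, Slc17a7, Rbfox3, Camk2a, Nrgn and Grin2a), summed and set against excitatory neurons, moved the same way in VLMCs. It was 51.9% and 62.2% of the excitatory level in NR GR-KO and 8.11% and 13.3% in DR GR-KO. Its part in the VLMC differences was not tested.

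The genotype comparison asks what the vector with Cre, aimed at astrocytes, changed in these genes. In NR 3 of 146 pairs were called, all in astrocytes, against 0.804% over all genes and 7.11% in astrocytes. The quasi-likelihood test and DESeq2 also called 3 each. None of the 12 neuron types had a called member, and 12 of the 146 pairs had an unadjusted p under 0.05. With a sex term 10 pairs were called, against 1.84% over all genes. The 7 added pairs, all higher in GR-KO, were Lrrtm4 in L4 (0.47, edgeR adjusted p = 0.00117), Lamp5 (0.33, adjusted p = 0.0476) and endothelial cells (0.92), where the neuron-only genes described above summed to 44.4% to 50.3% of their excitatory level in NR, and Lrrtm1 (0.65), Nlgn2 (0.35), Nrxn3 (0.43) and Nlgn1 (0.30) in astrocytes, as log2 fold changes. Leaving out 1 library added Lrrtm2 in L5PT (0.65) and Lrrtm4 in L6b (-0.85) without NR GR-KO female, and Nlgn1 in Sst (0.59) and Nrxn3 in oligodendrocytes (0.76) without NR GR-KO male.

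Lrrtm4 in NR astrocytes held 282 and 359 CPM in GR-KO and 160 and 108 CPM in GR-Con, without overlap, with a log2 fold change of 1.20 (SE 0.22, edgeR adjusted p = 2.71e-06). Lrrtm3 held 34.7 and 38.4 CPM in GR-KO and 23.1 and 18.2 CPM in GR-Con, a log2 fold change of 0.76 (SE 0.18, edgeR adjusted p = 0.000811). Nrxn2 moved the other way, with 197 and 173 CPM in GR-KO and 301 and 236 CPM in GR-Con, a log2 fold change of -0.60 (SE 0.17, edgeR adjusted p = 0.00787). The call of Lrrtm4 held in all 4 fits that left out a library. The call of Lrrtm3 was lost without NR GR-Con female (0.61), and that of Nrxn2 without NR GR-Con male (-0.43) or NR GR-KO female (-0.53).

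Lrrtm3 and Lrrtm4 in astrocytes were at the level of neuronal RNA. Over 8 libraries the neuron-only genes summed to 6.52% ± 1.78 of their excitatory level in astrocytes, with single genes between 3.19% (Rbfox3) and 41.1% (Nrgn). Lrrtm4 in astrocytes was 3.44% ± 1.42 of its own excitatory level and Lrrtm3 4.21% ± 1.36, so neither value is read as expression by astrocytes. The neuron-only share was 9.20% and 8.85% in NR GR-KO, 6.37% and 4.90% in NR GR-Con, 5.22% and 5.39% in DR GR-KO, and 4.77% and 7.50% in DR GR-Con. Lrrtm4 was high in the same libraries, with 195 and 172 CPM in DR GR-KO and 147 and 302 CPM in DR GR-Con, and the part of neuronal RNA in the Lrrtm3 and Lrrtm4 differences was not tested.

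Nrxn3, at 10.9% ± 2.85 of its excitatory level, lay inside the range of the single neuron-only genes, and Lrrtm1 at 44.2% ± 11.6 and Lrrtm2 at 46.9% ± 11.1 lay within 1 SD of its top, so these members were not separated from neuronal RNA. Nlgn1 at 58.3% ± 6.43, Nlgn2 at 151% ± 25.8, Nlgn3 at 217% ± 18.2 and Nrxn2 at 264% ± 83.6 stood above that range. In OPCs, where the neuron-only share was 9.27% ± 2.21, all 9 members lay between 63.3% ± 4.03 (Lrrtm4) and 618% ± 128 (Nrxn2). Members in OPCs are set against the summed share only, not against the range of the single genes as in astrocytes.

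**Figure D4:**
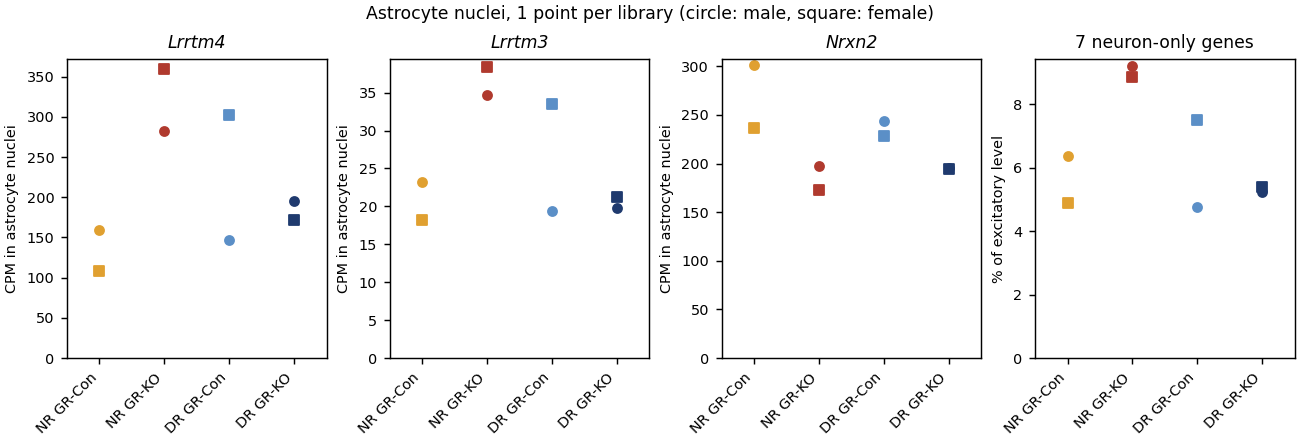
Lrrtm4, Lrrtm3 and Nrxn2 (CPM) in astrocyte nuclei, and the summed level of 7 neuron-only genes there as a percent of the excitatory level, by group. Each point is 1 library. Lrrtm4, Lrrtm3 and the neuron-only genes are high in both NR GR-KO libraries and in DR GR-Con female, whereas Nrxn2 is lower in all 4 GR-KO libraries than in the GR-Con ones.

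In DR GR-KO against NR GR-KO astrocytes, where 2.85% of genes were called, Lrrtm4 (log2 fold change -0.73, SE 0.16), Lrrtm3 (-0.76, SE 0.16), Lrrtm2 (-0.72, SE 0.21) and Nrxn3 (-0.53, SE 0.16) fell. The neuron-only share was lower in the same DR libraries, at 5.22% and 5.39% against 9.20% and 8.85% in NR GR-KO, and its part in these 4 differences was not tested. These values share the NR GR-KO libraries with the genotype comparison in NR. Lrrtm2 held 14.3 and 12.2 CPM in NR and 7.32 and 7.79 CPM in DR, from at most 141 UMIs a library, and was not called by the quasi-likelihood test (adjusted p = 0.0925).

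Over both rearings GR-KO against GR-Con had 1 call in 135 pairs, Nrxn2 in astrocytes, against 0.4% over all genes and 4.79% in astrocytes. The DR libraries held 195 and 195 CPM in GR-KO and 244 and 228 CPM in GR-Con, so that all 4 GR-KO libraries, at 173 to 197 CPM, lay below all 4 GR-Con libraries, at 228 to 301 CPM. The log2 fold change was -0.43 (SE 0.13, edgeR adjusted p = 0.0216; quasi-likelihood adjusted p = 0.0577). The call was lost in 6 of 8 fits that left out a library: without NR GR-Con male (-0.32), NR GR-KO female (-0.36), NR GR-KO male (-0.42), DR GR-KO male (-0.46), NR GR-Con female (-0.46) or DR GR-KO female (-0.47). Such fits also added calls in astrocytes, all higher in GR-KO. These were Lrrtm4 (0.84) and Lrrtm3 (0.50) without DR GR-Con female and Lrrtm1 (0.63) without DR GR-Con male. The part of neuronal RNA in these added calls was not tested.

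In DR alone no pair of 135 was called between genotypes by the edgeR likelihood ratio test, the quasi-likelihood test or DESeq2, against 0.513% over all genes, and 6 pairs had an unadjusted p under 0.05. The product of genotype and rearing, which tests whether rearing acted differently in the 2 genotypes, was also called in none of 135 pairs by these 3 tests, against 0.181% over all genes, and 8 pairs had an unadjusted p under 0.05. Its largest members were Lrrtm4 (log2 difference -1.46, SE 0.44, edgeR adjusted p = 0.138) and Lrrtm3 (-1.08, SE 0.37, adjusted p = 0.288), both in astrocytes. Both counts moved with single choices. With a sex term Lrrtm4 in L4 was called for the interaction (-0.63, edgeR adjusted p = 0.0266), against 0.59% over all genes in that fit. Without the DR GR-Con male library, Lrrtm4 (-1.87) and Lrrtm3 (-1.41) in astrocytes and Nrxn3 in oligodendrocytes (-1.01) were called for the interaction, and Lrrtm4 (-0.67) and Lrrtm3 (-0.65) in astrocytes and Nrxn3 in oligodendrocytes (-0.51) between genotypes in DR. In oligodendrocytes the neuron-only share was 6.91% and 7.98% in NR GR-KO, 4.24% and 3.52% in NR GR-Con, 3.71% and 3.73% in DR GR-KO, and 3.13% and 5.41% in DR GR-Con (male, female), and Nrxn3 was 5.17% of its excitatory level there. The part of neuronal RNA in these calls was not tested. Without NR GR-KO female, Lrrtm4 in L6b was called for the interaction (1.23). Without DR GR-Con female, Lrrtm2 in L6IT was called between genotypes in DR (0.46).

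Other genes of the same adhesion system were counted in DR against NR over both genotypes. Of 18 neurexin ligands and adaptors, such as cerebellins, neurexophilins and calsyntenins, 24 of 189 pairs passed the test, 23 of them higher in DR and 1 lower, and the median log2 fold change was 0.09. Over all genes 5.24% of pairs were called in this comparison, 2.62% higher and 2.63% lower. Igsf21, a neurexin 2 ligand of inhibitory synapses, was called higher in 8 types, with the smallest p in L5NP (1.21, SE 0.17, edgeR adjusted p = 7.85e-09) and L4 (0.91, SE 0.16, adjusted p = 2.16e-06). Cbln2, a cerebellin that links neurexins to delta glutamate receptors, was the one gene called lower, in 1 type (-0.64).

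Of 16 scaffolds and regulators, 23 of 233 pairs were called, 18 higher and 5 lower, with a median of 0.03. Shank2, a scaffold of excitatory synapses, was higher in 9 types, with 0.69 in L6CT (SE 0.11, edgeR adjusted p = 2.35e-07). Mdga1, which blocks neuroligins from binding neurexins, was higher in 6 types, with 1.16 in L4 (SE 0.19, adjusted p = 5.46e-07). The lower pairs included Lin7a and Lin7b, which encode PDZ proteins of the CASK complex.

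Of 26 other synaptic organizers, 52 of 386 pairs were called, 40 higher and 12 lower, with a median of 0.04. The lower pairs were all of the Slitrk family of postsynaptic adhesion proteins, Slitrk1 (4 types), Slitrk2 (3) and Slitrk4 (5), the strongest being Slitrk4 in L2/3 (-0.75, SE 0.10, edgeR adjusted p = 1.65e-10). Lrfn2 and Cadm1 were each called higher in 9 types, and Lrfn2 in L2/3 had a log2 fold change of 0.93 (SE 0.14, edgeR adjusted p = 7.19e-09). The quasi-likelihood test called 15, 14 and 33 pairs of the 3 lists.

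In the NR comparison of genotypes, 8 of 203 pairs of ligands and adaptors passed the test, 7 of them higher in GR-KO. Of scaffolds and regulators 5 of 260 passed, 4 of them higher, and of other organizers 6 of 416, all higher. The quasi-likelihood test called 2, 5 and 7 pairs of the 3 lists. Over all genes 0.804% of pairs were called, and 7.11% in astrocytes. In astrocytes the leading genes were Nxph1 (1.41, SE 0.19), Clstn2 (1.16, SE 0.19), Shank2 (1.02, SE 0.18) and Lrfn5 (1.28, SE 0.15), all higher in GR-KO, where Ctnna3 was higher as well (1.31, SE 0.30; 7.95 ± 0.790 CPM in GR-Con, n = 2). The neuron-only share given above was higher in the same libraries. In DR 3 of 181, 4 of 233 and 4 of 381 pairs of the 3 lists were called between genotypes, against 0.513% over all genes. Of these, 1, 3 and 3 were higher in GR-KO. Over both rearings 0 of 189, 3 of 233 and 2 of 386 were called, against 0.4%. For the interaction 2 of 189, 0 of 233 and 3 of 386 were called, all negative, against 0.181%. Among them were Nxph1 (-2.06) and Lrfn5.

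Finally, the genes whose pattern over the 15 types was most like each member were found by Pearson correlation of log2 CPM among 13951 genes, as a description. The points share libraries and depth. Nrxn2 was most like Gm28523 (r = 0.92) and Pclaf, Nrxn3 like Cntn4 (0.92) and Camsap3, and Nlgn1 like Acp1 (0.95). Gm28523 and Pclaf were low, with at most 8.36 and 5.22 CPM, both in OPCs, where 5 CPM was the limit. Nlgn2 was most like Spry1 (0.96), Nlgn3 like Gm50048 (0.98), Lrrtm1 like Flrt3 (0.83), Lrrtm2 like Gtf3c1 (0.74), Lrrtm3 like Rps6kl1 (0.93) and Lrrtm4 like Mamld1 (0.84). Among the members themselves Nrxn2, Nlgn2 and Nlgn3 had the most similar profiles, with r of 0.88 (Nrxn2 and Nlgn2), 0.86 (Nlgn2 and Nlgn3) and 0.86 (Nrxn2 and Nlgn3). Lrrtm3 and Lrrtm4 followed at 0.70. Nrxn2, Nlgn2 and Nlgn3 were each highest in OPCs, and how far their r values rest on OPCs was not tested.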

How the data were processed

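The authors sorted nuclei by DRAQ5, made 10x 3′ libraries, aligned and counted with Cell Ranger 8.0.1 (mm10, default settings, which include intronic reads) and processed nuclei with Seurat 5.3.0, with limits on the number of gene counts at both ends and removal of doublets predicted by DoubletFinder. The values deposited as a matrix are UMI counts per gene and nucleus, not normalized. A deposited table of nuclei lists each one's library, cell type and percent of mitochondrial UMIs, and these cell types were used as given. Counts were summed per library and cell type. Types with at least 10 nuclei in every library of a fit were tested in edgeR 4.0.16 (R 4.3.3; filterByExpr, TMM, glmFit, glmLRT, two-sided), the test named in the study's methods. Quasi-likelihood tests, DESeq2 1.42.0, other scaling, filters, a sex term, thinning and leaving out each library were alternatives. SE is the log2 fold change divided by the root of the likelihood ratio statistic. Levels, correlations and motifs were computed with Python 3.11.15 and pandas 2.3.3. Scripts were tested on simulated data, where the likelihood ratio test made more false calls than its threshold states. Coordinates are from GENCODE on GRCm38. Likeness used genes with at least 5 CPM in 1 type and 100 UMIs, as log2(CPM + 1).

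All members were named in every type; full statistics were given to called pairs, and where over 8 were called, to those with the smallest adjusted p. For the 3 other lists the leading 2 pairs were named, and genes named beyond this were chosen after their values were seen. The members and lists were chosen with earlier results of these data known. A few genes of these lists are not reported here, and the neuron-only level was summed without one of them. Library names in the table of nuclei give rearing, vector and sex but not the labels' replicate numbers, so each library was assigned to its group only and is named by group and sex.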

Additional observations from a re-analysis of the deposited data

How the results depend on the processing

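No paired analysis was possible because the library names lack the labels' replicate numbers, but each group holds 1 male and 1 female library, and a fit with a sex term matches these. Of 28 called pairs, none changed direction under any alternative. RLE scaling and a sex term kept 28 calls, DESeq2 and thinning 24, no filter on low counts 23 and the quasi-likelihood test 18, and a minimum of 25 nuclei kept 23 of 23. Leaving out 1 library kept 80 of 148 calls; in 2 against 2 comparisons the lone remaining animal is then assumed to vary like the others. The number of calls moved with the test: DR against NR in GR-Con had 2 calls, 0 by quasi-likelihood, 1 with no filter and 0 to 6 without 1 library (6 without DR GR-Con male). DR against NR in GR-KO had 14, 8 by quasi-likelihood, 9 with at least 25 nuclei (no VLMCs), 23 with a sex term and 3 to 18 without 1 library (3 without DR GR-KO male). DR against NR over both genotypes had 8, 11 with a sex term and 3 to 10 without 1 library (3 without DR GR-KO male). GR-KO against GR-Con had 3 in NR (10 with a sex term; 2 to 5 without 1 library), 0 in DR (0 to 3) and 1 over both rearings (0 by quasi-likelihood; 0 to 3). The interaction had 0, 1 with a sex term (Lrrtm4 in L4, -0.63) and 0 to 3 without 1 library. The causes were not tested. Only 2 animals a group limit all comparisons within 1 genotype or rearing.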
